A study of Mus musculus with 16 samples.

Results

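Between 6 h and 12 h of auxin, Ddx10-degron mouse embryonic stem cells lowered many abundant transcripts: cytosolic tRNA synthetases, serine and one-carbon enzymes, chaperones, actins and sterol enzymes. Fewer genes rose, among them the Nodal inhibitors Lefty1 and Lefty2. The pluripotency genes Nr0b1, Utf1 and Lin28a fell, and Sox2 and Fgf4 were called higher. Zfp42 did not pass the test, and the calls of Pou5f1, Nanog and Esrrb depended on which groups were fitted together. Targets of p53 were called in both directions, Cdkn1a among those called higher. The calls of Lefty1, Sox2 and Fgf4 ended whichever library of 6 h or 12 h was left out, and that of Cdkn1a ended for some of them.

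These results compare 2 libraries of cells kept for 12 h in auxin with 2 libraries of cells kept for 6 h, which are 4 of the 16 mRNA sequencing libraries and 2 of the 8 groups of the study. The 4 libraries were chosen by their labels alone, not by any value in the table. Every library came from E14 mouse embryonic stem cells with the genotype given as Ddx10-AID, Tir1: an auxin-inducible degron on Ddx10 together with Tir1, a plant protein that lets auxin direct the tagged protein to the proteasome. Cells of both times grew on gelatin in medium with serum, LIF, the GSK3 inhibitor CHIR99021 and the MEK inhibitor PD0325901, and both had received indole-3-acetic acid, the auxin, at 500 µM. The other groups were untreated cells, cells at 2 h, 4 h, 1 day and 2 days of auxin, and cells kept without auxin for 2 days after 2 days in it. Cells given auxin without carrying the degron were not analysed here. Effects of auxin itself, of time in culture and of losing DDX10 therefore cannot be told apart. Whether both libraries of a time came from separate cultures or clones is not stated. P-values rest on the spread between libraries of a group, pooled over all 8 groups, which may be technical.

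DDX10 is a DEAD-box RNA helicase. Its yeast homologue, Dbp4, acts in the early cleavages of the precursor RNA that yield the small ribosomal subunit, and the title of the series names 18S rRNA, which that subunit contains. When ribosome assembly stalls, free ribosomal proteins can bind MDM2, the ubiquitin ligase that keeps p53 low, and p53 then turns on genes of arrest and cell death. Cells also adjust to demand for protein synthesis through ATF4, a transcription factor whose targets include enzymes that make amino acids and enzymes that load them onto tRNAs.

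The unit throughout is the authors' normalized count per gene. Normalized totals were 15010563 and 14958803 in the 12 h libraries, against 16041129 and 16063897 in the 6 h libraries, and the 10 highest genes held 4.90% and 4.97% at 12 h against 5.58% and 5.67% at 6 h. Replicates differed by an SD of 0.368 on the log2 scale over genes at 12 h and 0.372 at 6 h, against 0.619 in untreated cells, the largest of the 8 groups. Both times lie on 1 side of a split that runs through the series: Lars2, which loads leucine in mitochondria, had 676 and 791 in the 12 h libraries, against 697 and 619.9 in the 6 h libraries, whereas in the 8 libraries outside 2 to 12 h it never fell below 2810.5. Ddx10 RNA itself was at 1312 and 1305 in the 12 h libraries, against 1676 and 1675 in the 6 h libraries, 1.28-fold lower and short of the threshold (log2 change -0.36 ± 0.11 SE, limma adjusted p = 0.0677). It was called lower in fits of 2 to 12 h alone and of 6 and 12 h alone (limma adjusted p = 0.00329 and 0.00508). Auxin acts on the protein, so this RNA does not check the degron. Markers of embryonic stem cells were abundant at both times, with Pou5f1 at 13539 and 13547 in the 12 h libraries, against 14775 and 15251 in the 6 h libraries. Of the markers of other cells that were tested, none of 15 for primitive endoderm, 8 for mesendoderm and 22 for the 2-cell state was called (4, 1 and 1 of them lower without the untreated and 1 day libraries), and no listed marker in the table was at 0 in all 4 libraries. Summed trophoblast markers were at 3681 and 3658 at 12 h, against 4280 and 4256 at 6 h, with 1 of 9 called higher and 1 lower. Summed neural markers were at 6463 and 6538 at 12 h, against 7991 and 8140 at 6 h, with 2 of 10 called lower. Fibroblast markers, most of whose sum is the matrix gene Fn1, were at 38548 and 37916 at 12 h, against 29216 and 30182 at 6 h, with Fn1 alone of 8 called. The part of other cells in the results below was not tested.

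Of 13355 genes tested with limma, 291 were higher at 12 h than at 6 h (2.18% of those tested) and 575 were lower (4.31%), together 6.48%, at a Benjamini-Hochberg adjusted p below 0.05; all adjusted p-values below are of this kind. Most changes were small: 45 genes were at least 2-fold higher (0.337%) and 44 at least 2-fold lower (0.329%). The values of the 2 times did not overlap in 60.5% of all genes, so non-overlap alone sets a gene apart little. It was also required of the genes named for the largest changes, so in those it is no support. Leaving out a library leaves 1 at that time, taken to vary like the other groups. Without 12 h replicate 1 the counts were 51 higher and 123 lower, without 12 h replicate 2 they were 45 and 150, without 6 h replicate 1 they were 47 and 127, and without 6 h replicate 2 they were 43 and 93. The direction of all 866 calls was the same in each of those 4 fits. Calls rest on a large change beside its spread, so leaving out 1 library could hardly reverse them. A fit without the untreated and 1 day libraries, whose replicates differ most, called 904 higher and 1437 lower, among them all 866. In bulk RNA, fewer cells of a kind and less RNA in each cell cannot be told apart.

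Calls of lower genes were most frequent among abundant genes. Of 534 genes with a mean above 5000 over the 4 libraries, 147 were lower at 12 h (27.5%) and 14 higher (2.62%), and the median log2 change was -0.167. Among the 3195 genes between 1000 and 5000, 266 were lower (8.33%) and 78 higher (2.44%). Among the 4669 genes between 200 and 1000, 111 were lower (2.38%) and 137 higher (2.93%). Between 50 and 200, 40 of 2441 were lower (1.64%) and 51 higher (2.09%), and below 50, 11 of 2516 in each direction (0.437%). The gene groups below differ in level, so the number of members above a mean of 1000 stands beside most of them. A normalized count also grows with transcript length, and the part of level in their counts was not tested.

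**Figure D1:**
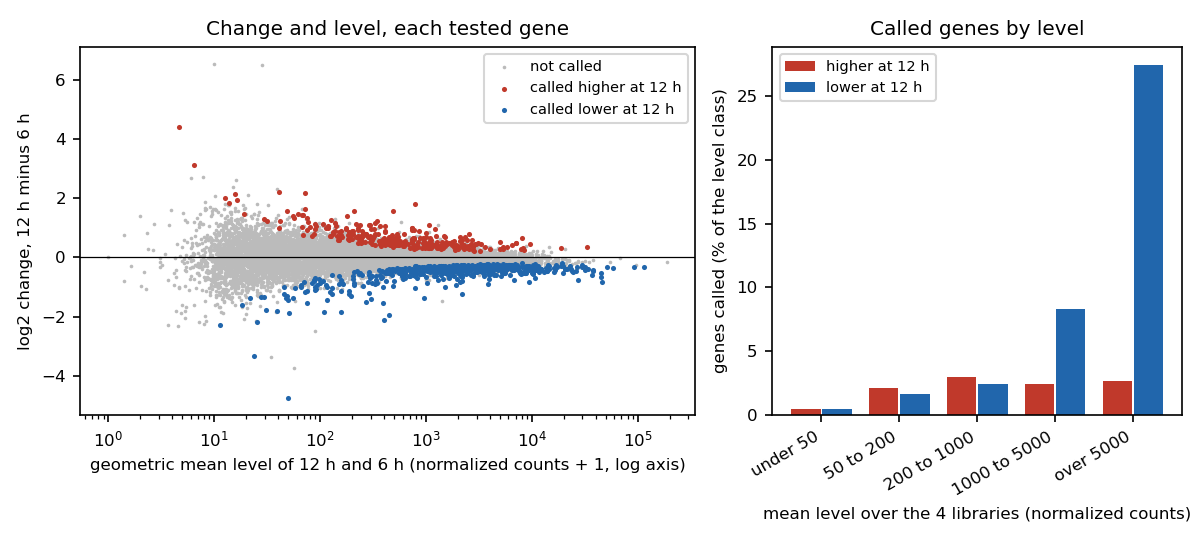
The left panel plots, for each tested gene, the log2 change (12 h minus 6 h) against its level on a log axis, with called genes in colour; the right panel gives the percentage of genes called in each class of mean level. The blue bars (lower at 12 h) reach 27.5% of genes above 5000, while the red bars (higher at 12 h) stay at or below 2.93% in every class.

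Many enzymes that supply amino acids to translation fell. All 19 tested cytosolic tRNA synthetases, which load amino acids onto tRNAs and each of which had a mean above 1000, had a log2 change below 0, and 9 were called lower (47.4%), none higher. Called lower were 5 to 7 with 1 library left out and 15 without the untreated and 1 day libraries. Their median log2 change was -0.335, against -0.00901 for all genes. From 2 h to 4 h it was -0.172, where Nars and Gars were called lower (limma adjusted p = 0.0161 and 0.0484). Aars, Tars and Sars were not called in that earlier interval. Aars, which loads alanine, was at 6299.9 and 6608 in the 12 h libraries, against 9015 and 9434 in the 6 h libraries (log2 change -0.52 ± 0.057 SE, limma adjusted p = 0.000318). Gars, which loads glycine, was at 4509 and 4446 in the 12 h libraries, against 6484 and 6480.2 in the 6 h libraries (log2 change -0.53 ± 0.056 SE, limma adjusted p = 0.000175). In both genes the 2 libraries of each time lay close together, and the times did not overlap. Nars, Tars and Sars, for asparagine, threonine and serine, had log2 changes of -0.59, -0.51 and -0.52. The calls of Aars, Gars, Nars, Tars and Sars held when any 1 of the 4 libraries was left out.

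Promoters of Aars, Gars and Tars carry the core letters of the C/EBP-ATF response element, to which ATF4 binds in amino acid response genes. TGATGNAA was searched on both strands in RefSeq windows of 250 bases before to 50 after each start site on GRCm38.p6, which were found for 9825 of the tested genes. It occurred in 252 of those windows (2.56%), in 5 of the 12 tRNA synthetase windows found, and in 3 of the 14 found for amino acid synthesis genes. Those 3 were of Asns, Got1 and Pycr1, and the windows of Psat1 and Phgdh, named below, held no match. Among all genes called lower it occurred in 12 of 455 windows (2.64%), close to the share of all genes, and among those called higher in 2 of 213 (0.939%). It was 1 of 10 motifs, all searched after values had been seen, and a match is neither a bound site nor a cause. The stretches below run 5′ to 3′ on the strand of the gene, with the match in capitals beginning 112, 30 and 15 bases before the start sites of Aars, Gars and Tars; in all of them the match is the reverse complement of the letters searched. They lie at chr8:111033700-111033767 (Aars, plus strand), chr6:55037941-55038000 (Gars, plus strand) and chr15:11399659-11399703 (Tars, minus strand).
Aars: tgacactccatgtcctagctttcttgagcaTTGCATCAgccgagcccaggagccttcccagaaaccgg
Gars: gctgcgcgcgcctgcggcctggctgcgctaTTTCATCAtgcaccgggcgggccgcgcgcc
Tars: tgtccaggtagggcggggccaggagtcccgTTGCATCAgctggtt

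Genes of serine synthesis and of the one-carbon pathway it feeds fell too. Of 17 enzymes of amino acid synthesis and one-carbon metabolism, 7 were lower (41.2%) and 1 was higher, with a median log2 change of -0.259 and 10 members above a mean of 1000. The number called lower was 4 to 6 with 1 library left out and 8 without the untreated and 1 day libraries. Psat1, the aminotransferase of serine synthesis, was at 2834 and 2796 in the 12 h libraries, against 5347 and 5259 in the 6 h libraries, which is 1.88-fold lower (log2 change -0.91 ± 0.080 SE, limma adjusted p = 3.48e-05). Phgdh, the first enzyme of that path, was at 1535 and 1629 in the 12 h libraries, against 2841 and 2756 in the 6 h libraries (log2 change -0.82 ± 0.072 SE, limma adjusted p = 3.48e-05). Every 12 h library of both genes lay below every 6 h library. The mitochondrial one-carbon enzymes Shmt2 and Mthfd1l had log2 changes of -0.55 and -0.63. From 2 h to 4 h the list median was -0.209, and Psat1 was called lower (limma adjusted p = 0.034). Phgdh, Shmt2 and Mthfd1l were not called in that earlier interval. The calls of Psat1, Phgdh, Shmt2 and Mthfd1l held when any 1 of the 4 libraries was left out. Atf4 RNA was at 2952 and 2901 in the 12 h libraries, against 2968 and 2854 in the 6 h libraries (limma adjusted p = 0.978), with overlapping values. Among 14 stress effectors downstream of ATF4, 2 were lower (14.3%, against 4.31% of all genes) and none higher. Atf5, a related transcription factor, had a log2 change of -0.89 and Eif4ebp1, a repressor of translation initiation, of -0.44. Among 12 amino acid transporters 1 was lower (8.33%), the cationic transporter Slc7a3 (-0.37). The calls of Eif4ebp1 and Slc7a3 ended whichever of the 4 libraries was left out (limma adjusted p of 0.0547 to 0.303). Leaving out a library took the limma adjusted p to 0.05 or more for Atf5 without 12 h replicate 1 (0.0646) and 6 h replicate 2 (0.0693).

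Part of the translation machinery, and some of the factors that build ribosomes, fell as well. Of 34 translation factors, 32 of them above a mean of 1000, 10 were lower (29.4%) and 1 was higher, with a median of -0.253. The median level of the list was 7600, and of all genes above 5000 a close share, 27.5%, was lower. Without the untreated and 1 day libraries 23 were called lower, and with 1 library left out 3 to 4. Eif3c, a subunit of the initiation factor eIF3, was at 9648 and 9677 at 12 h, against 13003 and 13082 at 6 h (log2 change -0.43 ± 0.049 SE, limma adjusted p = 0.000364). Eif4a1, the helicase that unwinds leaders for initiation, was at 27659 and 27365 at 12 h, against 37002 and 36684 at 6 h (-0.42), and Eef1g, an elongation factor subunit, had a log2 change of -0.41. Eif4a2, the close relative of Eif4a1, was the member called higher, with 8445 and 8122 at 12 h, against 6125 and 5809 at 6 h (log2 change 0.47 ± 0.096 SE, limma adjusted p = 0.0121). The calls of Eif3c, Eif4a1 and Eef1g held when any 1 of the 4 libraries was left out, and that of Eif4a2 ended whichever of the 4 libraries was left out (limma adjusted p of 0.0653 to 0.119).

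Of 62 factors of the small ribosomal subunit, where DDX10 acts, 60 had a log2 change below 0 and 8 were called lower (12.9%). Their median was -0.215, and 51 had a mean above 1000. The median level of the list was 1790, and of all genes between 1000 and 5000, 8.33% were lower. Called lower were 1 to 3 with 1 library left out and 33 without the untreated and 1 day libraries. Lyar, a nucleolar protein of growing cells, was at 1949 and 2024 at 12 h, against 2927 and 2876 at 6 h (log2 change -0.55 ± 0.073 SE, limma adjusted p = 0.00133). Wdr46, a scaffold of the small-subunit processome, and Pno1, which stays on the nascent subunit into the cytoplasm, had log2 changes of -0.48 and -0.39. Of 53 large-subunit factors, 49 of them above a mean of 1000, 14 were lower (26.4%) and none higher, with a median of -0.196. A fit without the untreated and 1 day libraries called 1 of them higher. The number called lower was 0 to 4 with 1 library left out and 25 without the untreated and 1 day libraries. They included the nucleolar GTPase Gnl3 (-0.39), the nucleolar chaperone Npm1 (-0.45) and the helicase Ddx18 (-0.42). Of 33 genes of RNA polymerases I and III and their partners, 6 were lower (18.2%, against 4.31% of all genes) and none higher. Among them were the nucleolar phosphoproteins Nolc1 (-0.38) and Tcof1 (-0.39). In this list 17 members had a mean above 1000. Without the untreated and 1 day libraries 7 were called lower, and with 1 library left out 0 to 1. The call of Lyar held when any 1 of the 4 libraries was left out, and that of Tcof1 ended whichever of the 4 libraries was left out (limma adjusted p of 0.0533 to 0.0929). With 1 library fewer, the calls of Wdr46 and Pno1 ended without 12 h replicate 1 or 6 h replicate 2. Those of Gnl3 and Npm1 ended without 6 h replicate 2, and that of Ddx18 without 12 h replicate 2 or 6 h replicate 2. The Nolc1 call ended without 12 h replicate 1, 12 h replicate 2 or 6 h replicate 2.

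**Figure D2:**
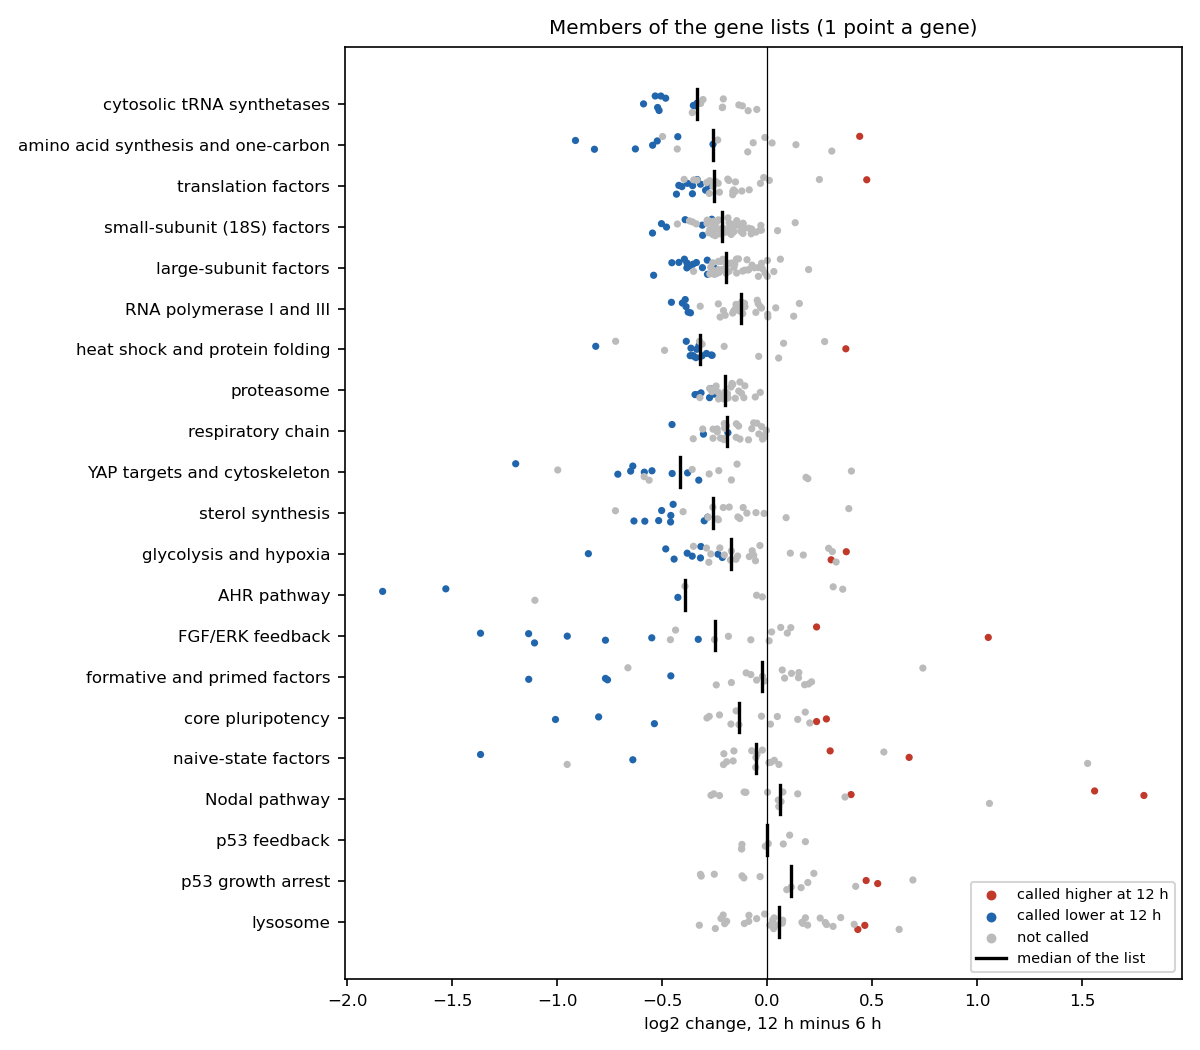
Each point is a tested gene of a list, placed by its log2 change (12 h minus 6 h), red where called higher at 12 h, blue where called lower and grey where not called; the black bar is the median of the list. The tRNA synthetases all lie below 0, with a median of -0.335, while the p53 feedback genes lie around 0.

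Most of the listed chaperones fell. Of 23 genes of heat shock and protein folding, 18 of them above a mean of 1000, 13 were lower (56.5%) and 1 was higher, with a median of -0.323. Called lower were 3 to 7 with 1 library left out and 17 without the untreated and 1 day libraries. Hspa8, the constitutive HSC70 chaperone, was at 34663 and 34824 in the 12 h libraries, against 59064 and 63423 in the 6 h libraries, 1.76-fold lower (log2 change -0.82 ± 0.061 SE, limma adjusted p = 2.5e-05). Cct5 and Cct3, subunits of the chaperonin that folds actin and tubulin, had log2 changes of -0.36 and -0.36. Hspd1, the mitochondrial chaperonin, and Dnaja1, a co-chaperone of HSC70, had -0.39 and -0.37. Hsf1, the transcription factor of the heat shock response, was called higher instead, at 433 and 428 at 12 h, against 319.7 and 345 at 6 h (log2 change 0.37 ± 0.099 SE, limma adjusted p = 0.039). Rbm3, a cold-inducible RNA-binding protein outside this list, was at 7208 and 7043 in the 12 h libraries, against 12538 and 12592 in the 6 h libraries (log2 change -0.82 ± 0.067 SE, limma adjusted p = 3.08e-05). In both Hspa8 and Rbm3 the 12 h libraries lay below the 6 h libraries. The calls of Hspa8, Rbm3 and Cct5 held when any 1 of the 4 libraries was left out, and that of Hsf1 ended whichever of the 4 libraries was left out (limma adjusted p of 0.129 to 0.244). A limma adjusted p of 0.05 or more was found for Cct3 without 6 h replicate 1 (0.0523), Hspd1 without 6 h replicate 1 (0.0529) and Dnaja1 without 12 h replicate 2 (0.0664) and 6 h replicate 1 (0.0599).

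Genes of the actin cytoskeleton and targets of YAP, a coactivator that responds to tension and adhesion, were the list with the lowest median among those with 9 or more calls, at -0.416. Of 20 tested members, 12 of them above a mean of 1000, 9 were lower (45.0%) and none higher. A fit without the untreated and 1 day libraries called 1 of them higher. The number called lower was 3 to 7 with 1 library left out and 12 without the untreated and 1 day libraries. Actg1, cytoplasmic gamma-actin, was at 35476 and 35466 in the 12 h libraries, against 56000 and 55380 in the 6 h libraries (log2 change -0.65 ± 0.063 SE, limma adjusted p = 9.51e-05). Actb, its beta counterpart, was at 29966 and 30238 in the 12 h libraries, against 44227 and 46136 in the 6 h libraries (log2 change -0.59 ± 0.081 SE, limma adjusted p = 0.0016). Neither gene's libraries overlapped between times. Actb, Actg1, Hspa8, Npm1, Pgam1 and Ldha have near-identical copies in the genome, and how reads were divided among copies is not given in the sources used here. Zyx, zyxin of focal adhesions, was at 183 and 201 in the 12 h libraries, against 427 and 455 in the 6 h libraries (log2 change -1.20 ± 0.22 SE, limma adjusted p = 0.0066). Vcl, vinculin, and Tpm1, a tropomyosin, had log2 changes of -0.55 and -0.45. The calls of Actg1, Actb and Tpm1 held when any 1 of the 4 libraries was left out. The limma adjusted p was 0.05 or more for Vcl without 12 h replicate 1 (0.0763) and 6 h replicate 2 (0.0857) and Zyx without 12 h replicate 1 (0.0742), 6 h replicate 1 (0.0551) and 6 h replicate 2 (0.0741).

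Serum response factor, SRF, binds the CArG box, and cytoskeletal genes are among its known targets. Srf itself was at 942 and 1012 at 12 h, against 1216 and 1302 at 6 h (log2 change -0.37 ± 0.096 SE, limma adjusted p = 0.0381). The call of Srf ended whichever of the 4 libraries was left out (limma adjusted p of 0.11 to 0.252). It also ended with the trend on length and GC content removed (limma adjusted p = 0.0575). The box was found in 154 of the 9825 promoter windows (1.57%) and in 4 of the 15 windows found for this list. Those of Actg1 and Vcl, the 2 named above, are shown on the strand of the gene with the box in capitals, which begins 90 and 227 bases before their start sites. They lie at chr11:120348546-120348615 (Actg1, minus strand) and chr14:20929148-20929210 (Vcl, plus strand) on GRCm38.p6, from RefSeq.
Actg1: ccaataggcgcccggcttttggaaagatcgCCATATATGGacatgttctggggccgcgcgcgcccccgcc
Vcl: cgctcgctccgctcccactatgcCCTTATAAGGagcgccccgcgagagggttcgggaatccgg

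Several genes of sterol synthesis fell. Of 25 genes, 15 of them above a mean of 1000, 9 were lower at 12 h than at 6 h (36%) and none higher, with a median log2 change of -0.259, against a median of 0.287 from 2 h to 4 h. Without the untreated and 1 day libraries 14 were called lower, and with 1 library left out 3 to 4. For 13 of the 25 the change from 6 h to 12 h differed from that of 2 h to 4 h by limma's test of the difference, which called 4.3% of all genes. Hmgcs1, an early enzyme of the mevalonate path, was at 4396 and 4485 (2 h), 6149 and 5997 (4 h), 4997 and 4836 (6 h) and 3638 and 3508 (12 h). Its log2 change was -0.46 ± 0.067 (SE) from 6 h to 12 h and 0.45 from 2 h to 4 h, a difference of -0.91 (limma adjusted p = 0.000361). Insig1, which helps hold the transcription factor SREBP in the endoplasmic reticulum, and Idi1, an isomerase of the path, had log2 changes of -0.46 and -0.63 between 6 h and 12 h. The calls of Hmgcs1 and Insig1 held when any 1 of the 4 libraries was left out. Leaving out a library took the limma adjusted p to 0.05 or more for Idi1 without 12 h replicate 1 (0.0681), 6 h replicate 1 (0.0644) and 6 h replicate 2 (0.0552). The Hmgcs1 promoter holds a short form of the sterol regulatory element, TCACNCCAC, which occurs in 1.46% of the 9825 windows and in 1 of the 17 windows found for this list. The same letters preceded by an A, a longer form, were in 0.183% of all windows and in 0 of those 17. The stretch of Hmgcs1 at chr13:119690184-119690252 (plus strand, GRCm38.p6, RefSeq) is shown with the element in capitals, beginning 137 bases before the start site.
Hmgcs1: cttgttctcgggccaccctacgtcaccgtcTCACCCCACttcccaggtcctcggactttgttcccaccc

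Glycolysis genes were called in both directions. Of 31 genes of glycolysis and hypoxia, 9 were lower (29.0%) and 2 were higher, with a median of -0.175 and 17 members above a mean of 1000. Called lower were 2 to 4 with 1 library left out and 14 without the untreated and 1 day libraries. Pgam1 and Aldoa, 2 enzymes of the middle of the path, had log2 changes of -0.38 ± 0.052 and -0.44 ± 0.067 (SE, limma adjusted p = 0.00154 and 0.00272). Ldha, which makes lactate, was at 13364 and 13961 at 12 h, against 18975 and 19223 at 6 h, and Pkm, which makes pyruvate, had a log2 change of -0.32. Called higher were a glucose transporter and a hexokinase. The transporter Slc2a3 was at 20637 and 20723 at 12 h, against 16906 and 16602 at 6 h (log2 change 0.30 ± 0.080 SE, limma adjusted p = 0.039). The hexokinase Hk1 was at 2014 and 2236 at 12 h, against 1678 and 1594 at 6 h (log2 change 0.38 ± 0.10 SE, limma adjusted p = 0.0459). The calls of Pgam1 and Aldoa held when any 1 of the 4 libraries was left out, and those of Slc2a3 and Hk1 ended whichever of the 4 libraries was left out (limma adjusted p of 0.121 to 0.28). With 1 library fewer, the limma adjusted p was 0.05 or more for Ldha without 12 h replicate 1 (0.0722), 6 h replicate 1 (0.0569) and 6 h replicate 2 (0.0678) and Pkm without 12 h replicate 1 (0.0957), 6 h replicate 1 (0.0718) and 6 h replicate 2 (0.0704). The call of Slc2a3 also ended under upper-quartile scaling (limma adjusted p = 0.0539), and that of Hk1 with replicate as a block (0.0603).

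Factors of the pluripotency network were called in both directions, with Nr0b1, Utf1 and Lin28a among those that fell. Of 17 core factors 3 were lower (17.6%, against 4.31% of all genes) and 2 higher (11.8%, against 2.18%). Of 21 naive-state factors 2 were lower and 2 higher (9.52% each). In both lists 17 members had a mean above 1000. Without the untreated and 1 day libraries 7 core factors were lower and 5 higher, and 6 naive-state factors were lower and 3 higher. With 1 library left out, 2 core factors were lower and none higher, and 1 naive-state factor was called in each direction. Nr0b1, an orphan nuclear receptor of the stem cell network, had the smallest p of all genes. It was at 579 and 620.3 in the 12 h libraries, against 1557 and 1533 in the 6 h libraries, 2.58-fold lower (log2 change -1.37 ± 0.084 SE, limma adjusted p = 3.74e-06). Its gene lies at chrX:86191764-86195947 on the plus strand of GRCm38, from GENCODE M21. Utf1, a chromatin factor of undifferentiated cells, was at 1023 and 1109.9 in the 12 h libraries, against 2085 and 2205 in the 6 h libraries (log2 change -1.01 ± 0.085 SE, limma adjusted p = 3.08e-05). Lin28a, which blocks maturation of the let-7 miRNAs, was at 1650.5 and 1677 in the 12 h libraries, against 2788 and 3024 in the 6 h libraries (log2 change -0.80 ± 0.11 SE, limma adjusted p = 0.00175). In these 3 genes both 12 h libraries lay below the 6 h libraries. From 2 h to 4 h Utf1 was called lower as well (log2 change -0.54, limma adjusted p = 0.00317), and Nr0b1 and Lin28a were not called. L1td1, an RNA-binding protein of stem cells, had a log2 change of -0.54 (limma adjusted p = 0.0162). Pecam1, a surface protein of naive cells, was at 2733 and 2604 in the 12 h libraries, against 1626 and 1717 in the 6 h libraries (log2 change 0.68 ± 0.069 SE, limma adjusted p = 0.000163). Sox2, a core pluripotency factor, was at 8368 and 8989 at 12 h, against 6782 and 7509.7 at 6 h (log2 change 0.28 ± 0.071 SE, limma adjusted p = 0.0324). Fgf4, a growth factor that SOX2 and OCT4 activate, was at 3576 and 3465 at 12 h, against 3079 and 2907 at 6 h (log2 change 0.23 ± 0.058 SE, limma adjusted p = 0.0299). The calls of Nr0b1, Utf1, Lin28a and Pecam1 held when any 1 of the 4 libraries was left out, and those of L1td1, Sox2 and Fgf4 ended whichever of the 4 libraries was left out (limma adjusted p of 0.0698 to 0.268).

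For other members of the network the result depended on the fit. Nanog was at 16435 and 15977 at 12 h, against 14324 and 14270 at 6 h (0.18, limma adjusted p = 0.11) and Esrrb at 14429 and 15889 at 12 h, against 17242 and 17762 at 6 h (-0.21, limma adjusted p = 0.31). Pou5f1, Zfp42 and Klf4 had log2 changes of -0.15, 0.0076 and 0.033, with limma adjusted p of 0.27, 0.966 and 0.947. In fits of 2 to 12 h alone and of 6 and 12 h alone, limma called Nanog higher (adjusted p = 0.0045 and 0.0136), and Esrrb (0.0184 and 0.0229) and Pou5f1 (0.0473 and 0.0311) lower. Zfp42 and Klf4 were called in neither. Of 21 formative and primed factors 4 were lower (19%, and 0 to 1 of them with 1 library left out) and none higher, among them Foxd3, a repressor that acts on leaving the naive state, at 259 and 260.2 at 12 h, against 455 and 427 at 6 h (log2 change -0.76 ± 0.13 SE, limma adjusted p = 0.00502). The de novo methyltransferase Dnmt3b was at 1847 and 1864 at 12 h, against 2586 and 2518 at 6 h (-0.46), and its cofactor Dnmt3l at 1420.2 and 1442 at 12 h, against 3385 and 3302 at 6 h (log2 change -1.22 ± 0.28 SE, limma adjusted p = 0.0221). Etv4 and Sox11 had log2 changes of -0.77 and -1.14. The calls of Dnmt3b, Dnmt3l, Etv4 and Sox11 ended whichever of the 4 libraries was left out (limma adjusted p of 0.0547 to 0.203). A limma adjusted p of 0.05 or more was found for Foxd3 without 6 h replicate 1 (0.0599).

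Nodal, a ligand of the TGF-beta family, signals through ALK4 and induces its own inhibitors, the LEFTY proteins. Of 16 genes of this pathway, 6 of them above a mean of 1000, 3 were higher (18.8%) and none lower. Fewer were called higher with 1 library left out. Without the untreated and 1 day libraries 5 were called higher and 1 lower. Lefty2 was at 1432 and 1454 in the 12 h libraries, against 361 and 479 in the 6 h libraries, 3.44-fold higher (log2 change 1.79 ± 0.19 SE, limma adjusted p = 0.000258). Lefty1 was at 771 and 897 in the 12 h libraries, against 276 and 288 in the 6 h libraries (log2 change 1.56 ± 0.33 SE, limma adjusted p = 0.0139). Acvr1b, which encodes ALK4, was at 1195 and 1225 at 12 h, against 926 and 909.6 at 6 h (log2 change 0.40, limma adjusted p = 0.0221). The 12 h libraries of all 3 genes lay above the 6 h libraries. The call of Lefty2 held when any 1 of the 4 libraries was left out, and those of Lefty1 and Acvr1b ended whichever of the 4 libraries was left out (limma adjusted p of 0.0763 to 0.149). Lefty1 and Lefty2 are close copies of each other, and how the authors' counting divided reads between them is not given in the sources used here.

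Some genes that report on ERK, the kinase downstream of the MEK enzymes that PD0325901 inhibits, fell. Of 19 FGF and ERK feedback genes 7 were lower (36.8%) and 2 higher, with a median of -0.251 and 7 members above a mean of 1000. Without the untreated and 1 day libraries 9 were called lower, and with 1 library left out 1 to 2. Myc, the growth-promoting transcription factor, was at 138 and 113 in the 12 h libraries, against 291 and 261 in the 6 h libraries (log2 change -1.14 ± 0.17 SE, limma adjusted p = 0.00274). Both 12 h libraries lay below both 6 h libraries. Dusp6, a phosphatase that turns ERK off, was at 178 and 181 at 12 h, against 302 and 402 at 6 h (log2 change -0.95 ± 0.20 SE, limma adjusted p = 0.0157). Its relative Dusp4 was at 11.2 and 13.6 at 12 h, against 30.3 and 36.9 at 6 h (log2 change -1.37 ± 0.30 SE, limma adjusted p = 0.0177). Spry4, which dampens receptor signalling, had a log2 change of -1.11. The receptor Fgfr2 was called higher, at 151 and 112 at 12 h, against 65.7 and 59 at 6 h (log2 change 1.05 ± 0.26 SE, limma adjusted p = 0.0318). The call of Myc held when any 1 of the 4 libraries was left out, and those of Dusp4, Spry4 and Fgfr2 ended whichever of the 4 libraries was left out (limma adjusted p of 0.0673 to 0.254). The limma adjusted p was 0.05 or more for Dusp6 without 12 h replicate 1 (0.111), 12 h replicate 2 (0.09) and 6 h replicate 2 (0.172).

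The aryl hydrocarbon receptor, AHR, is activated by many planar compounds, indole derivatives among them, and Cyp1a1 and Cyp1b1 are its best-known targets. Cyp1a1 was at 415 and 328 (2 h), 987 and 973 (4 h), 670.5 and 648 (6 h) and 214 and 242 (12 h). It was 2.89-fold lower at 12 h than at 6 h (log2 change -1.53 ± 0.25 SE, limma adjusted p = 0.00388), after a log2 change of 1.41 from 2 h to 4 h. Cyp1b1 was at 56.5 and 56.2 in the 12 h libraries, against 208 and 198 in the 6 h libraries (log2 change -1.83 ± 0.27 SE, limma adjusted p = 0.00239). Of 9 genes of the pathway, 3 of them above a mean of 1000, 3 were lower (33.3%) and none higher, the other being Nqo1, a quinone reductase (-0.43). The calls of Cyp1a1 and Cyp1b1 held when any 1 of the 4 libraries was left out, and that of Nqo1 ended whichever of the 4 libraries was left out (limma adjusted p of 0.196 to 0.203). The Nqo1 call also ended with trimmed means of M values (limma adjusted p = 0.0588) and with upper quartiles (0.0547). The dioxin response element that AHR binds was searched as TTGCGTG. These letters were in 2.05% of all 9825 windows and in 0 of the 7 windows found for this list. Only these exact letters were searched, and only in the promoter windows close to each start site. Elements farther away or with other letters would be missed, so whether genes of this list carry the element was not tested.

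Targets of p53 were called in both directions between 6 h and 12 h, and its feedback genes were not called. Of 8 feedback genes, none was called in either direction, and their median log2 change was -0.00255 from 6 h to 12 h, with a sign that changed between settings, against 0.461 from 2 h to 4 h. Mdm2 was at 3258 and 3236 (2 h), 5755 and 6051 (4 h), 5334 and 5218 (6 h) and 6003 and 5962 (12 h). Its log2 change from 6 h to 12 h was 0.18 ± 0.086 (SE, limma adjusted p = 0.249; 0.016 in a fit of 2 to 12 h alone and 0.0242 in one of 6 and 12 h alone, both of which call it higher), and the difference from its change of 0.86 between 2 h and 4 h was -0.68 (limma adjusted p = 0.00894). Ccng1, cyclin G1, had log2 changes of 0.076 in the later and 0.85 in the earlier interval. Trp53 itself had a log2 change of -0.12 (limma adjusted p = 0.307). Cdkn1a, the p21 inhibitor of the cell cycle, still rose, at 3777 and 3969.9 in the 12 h libraries, against 2836 and 2754 in the 6 h libraries (log2 change 0.47 ± 0.078 SE, limma adjusted p = 0.00434). Of 15 growth arrest targets 2 were higher (13.3%, against 2.18% of all genes), and of 18 cell death targets 2 were higher (11.1%) and 1 was lower (5.56%, against 4.31% of all genes). Of 16 repair and metabolism targets 1 was higher (6.25%) and 3 were lower (18.8%). The counts higher and lower without the untreated and 1 day libraries were 4 and 2 for growth arrest, 6 and 3 for cell death, 1 and 3 for repair and metabolism, and 1 and 0 for feedback. With 1 library left out, 0 to 1 growth arrest and 0 to 1 repair targets were called higher and no other member of the 4 lists. Those called higher, beside Cdkn1a, were Ptp4a3 (0.53), Trp53i11 (0.70), the brain-type carnitine palmitoyltransferase Cpt1c (0.44) and Trp53inp1. Trp53inp1, a stress-induced p53 cofactor, was at 8698 and 8264 at 12 h, against 6048 and 5905 at 6 h (0.50). Those called lower were the nuclease Aen (-0.30), the Fanconi anaemia gene Fancc (-0.63), Pcna and Sesn2. Sesn2, a sestrin that restrains mTORC1, was at 4266 and 4554 at 12 h, against 5264 and 5409 at 6 h (-0.28), after a log2 change of 0.71 from 2 h to 4 h. The calls of Trp53inp1, Sesn2, Ptp4a3, Trp53i11, Aen and Fancc ended whichever of the 4 libraries was left out (limma adjusted p of 0.0605 to 0.283). Leaving out a library took the limma adjusted p to 0.05 or more for Cdkn1a without 12 h replicate 2 (0.0533) and 6 h replicate 2 (0.0585) and Cpt1c without 12 h replicate 2 (0.171) and 6 h replicate 2 (0.188).

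**Figure D3:**
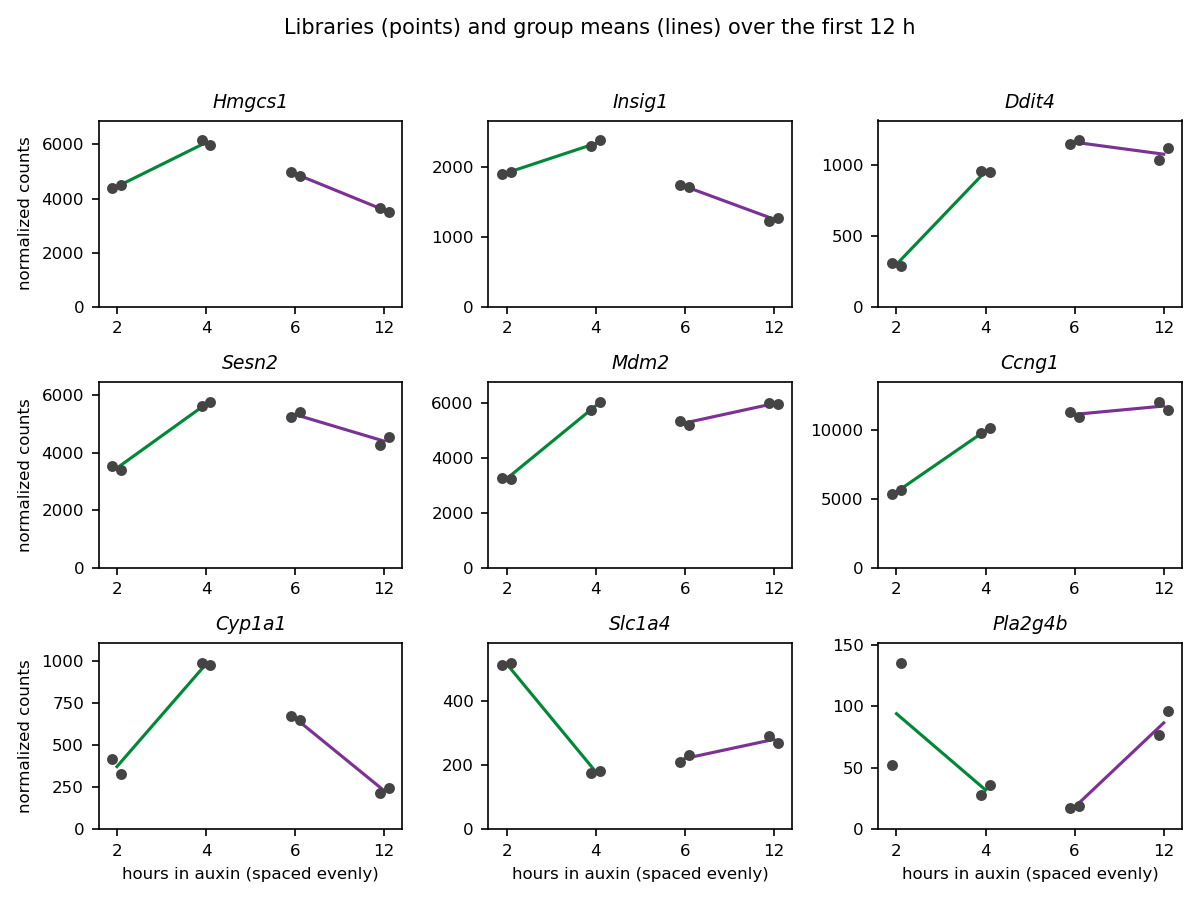
Normalized counts (y axis, from 0) of 9 genes at 2, 4, 6 and 12 h of auxin (x axis, spaced evenly), with a point for each library and lines between the group means of 2 and 4 h (green) and of 6 and 12 h (purple). Hmgcs1, Insig1 and Cyp1a1 are higher at 4 h than at 2 h and lower at 12 h than at 6 h, while Mdm2 and Ccng1, with log2 changes of 0.18 and 0.076 from 6 h to 12 h, were not called there.

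Some genes of the cell cycle fell. Of 48 genes of G2 and mitosis 8 were lower (16.7%) and none higher, with 41 members above a mean of 1000. Of 40 genes of G1/S and replication 5 were lower (12.5%) and none higher, with 31 above it. The median levels of the lists were 2590 and 2150, and of all genes between 1000 and 5000, 8.33% were lower. A fit without the untreated and 1 day libraries called 1 and 3 members higher. In the first of these lists 0 to 2 were called lower with 1 library left out and 12 without the untreated and 1 day libraries, and in the second 0 to 1 and 15. Cdc20, the activator of the anaphase-promoting complex, was at 3549.9 and 3831 in the 12 h libraries, against 5632 and 5625 in the 6 h libraries (log2 change -0.61 ± 0.098 SE, limma adjusted p = 0.00372). Plk1, a mitotic kinase, and Mcm7, a subunit of the replicative helicase, had log2 changes of -0.44 and -0.42. Pcna, the sliding clamp, was at 6194 and 6310.3 at 12 h, against 7808 and 7977 at 6 h (-0.34). Of 16 G1 cyclins, kinases and inhibitors 2 were lower (12.5%, against 4.31% of all genes) and none higher. These were the G1 kinases Cdk4 (-0.29) and Cdk6 (-0.59). The calls of Pcna, Cdk4 and Cdk6 ended whichever of the 4 libraries was left out (limma adjusted p of 0.0509 to 0.286). With 1 library fewer, the limma adjusted p was 0.05 or more for Cdc20 without 12 h replicate 1 (0.05), Plk1 without 12 h replicate 1 (0.0879), 6 h replicate 1 (0.0588) and 6 h replicate 2 (0.0826) and Mcm7 without 12 h replicate 1 (0.0714) and 6 h replicate 2 (0.0857). The Cdk6 call also ended with trimmed means of M values (limma adjusted p = 0.0523) and with the trend on length and GC content removed (0.0522). All 31 proteasome genes and all 30 respiratory chain genes tested had a log2 change below 0, with medians of -0.201 and -0.191, but 6 and 3 were called lower. With 1 library left out, none of either list was called, and without the untreated and 1 day libraries 24 proteasome and 10 respiratory chain genes were called lower.

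The remaining lists held 0 to 4 calls each. No gene was called among 14 of BMP signalling and its ID targets, 16 of LIF and STAT3 signalling or 14 of MHC class I presentation; without the untreated and 1 day libraries 1 BMP gene was higher and 1 lower, 1 LIF gene was higher and 4 lower, and no MHC gene was called. Of 32 lysosome genes 2 were higher (6.25%) and none lower, and without the untreated and 1 day libraries 9 were higher and 3 lower. Among the 2 was the galactosidase Glb1, at 1168 and 1250.5 at 12 h, against 911 and 881 at 6 h (0.43). Of 25 immediate early genes 1 was higher (4.0%, against 2.18% of all genes), Jund of the AP-1 family (0.50). In that list 3 were lower (12.0%, against 4.31%), Myc and Srf among them. Of 22 NRF2 targets 4 were lower (18.2%, against 4.31% of all genes), including Keap1, the adaptor that marks NRF2 for degradation (-0.47). Of 15 genes of DNA methylation 3 were lower (20%), Dnmt3b, Dnmt3l and the corepressor Trim28, at 28668 and 28370 at 12 h, against 37297 and 34442 at 6 h (log2 change -0.33 ± 0.061 SE, limma adjusted p = 0.00681). Of 19 genes of the MYC network 4 were lower (21.1%), among them Ncl, nucleolin (-0.54). A fit without the untreated and 1 day libraries called 1 NRF2 target, 1 DNA methylation gene and 1 MYC network gene higher. Those lower numbered 10 NRF2 targets, 7 DNA methylation genes and 5 MYC network genes without the untreated and 1 day libraries, and 0 to 2, 0 to 1 and 1 to 2 with 1 library left out. In the interferon list Stat2, a signal transducer, was called higher (0.44). Ddx58, which encodes the RNA sensor RIG-I, was called lower, at 298 and 261 at 12 h, against 578 and 538 at 6 h (log2 change -1.0 ± 0.12 SE, limma adjusted p = 0.000805). It was called lower from 2 h to 4 h too (log2 change -0.71, limma adjusted p = 0.00726). Of 20 genes of ER stress 1 was called higher (5.0%), Pdia4, a disulfide isomerase (0.34). Of 19 WNT targets 1 was called higher (5.26%), Cdx1, a homeobox gene (0.94). Fn1, fibronectin, was at 37686 and 36991 in the 12 h libraries, against 28474 and 29402 in the 6 h libraries (log2 change 0.37 ± 0.065 SE, limma adjusted p = 0.00571). The trophoblast factor Tfap2c was higher (0.84) and the keratin Krt8 lower (-0.96), and of the neural markers Stmn2, a microtubule regulator, and Nkx2-2, a homeobox gene, were lower (-0.37 and -2.19). The call of Ddx58 held when any 1 of the 4 libraries was left out, and those of Glb1, Jund, Keap1, Ncl, Stat2, Cdx1, Tfap2c and Nkx2-2 ended whichever of the 4 libraries was left out (limma adjusted p of 0.0528 to 0.236). A limma adjusted p of 0.05 or more was found for Trim28 without 12 h replicate 1 (0.0614), 12 h replicate 2 (0.0667) and 6 h replicate 1 (0.097), Pdia4 without 12 h replicate 1 (0.0957), 6 h replicate 1 (0.0635) and 6 h replicate 2 (0.0902), Fn1 without 12 h replicate 1 (0.063) and 6 h replicate 1 (0.0679), Krt8 without 12 h replicate 1 (0.0898), 6 h replicate 1 (0.0605) and 6 h replicate 2 (0.0762) and Stmn2 without 12 h replicate 2 (0.0672) and 6 h replicate 2 (0.0798). Stat2 also lost its call without the filter on low values (limma adjusted p = 0.0502) and with upper quartiles (0.058), and Nkx2-2 with a pseudocount of 0.5 (0.057).

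**Figure D4:**
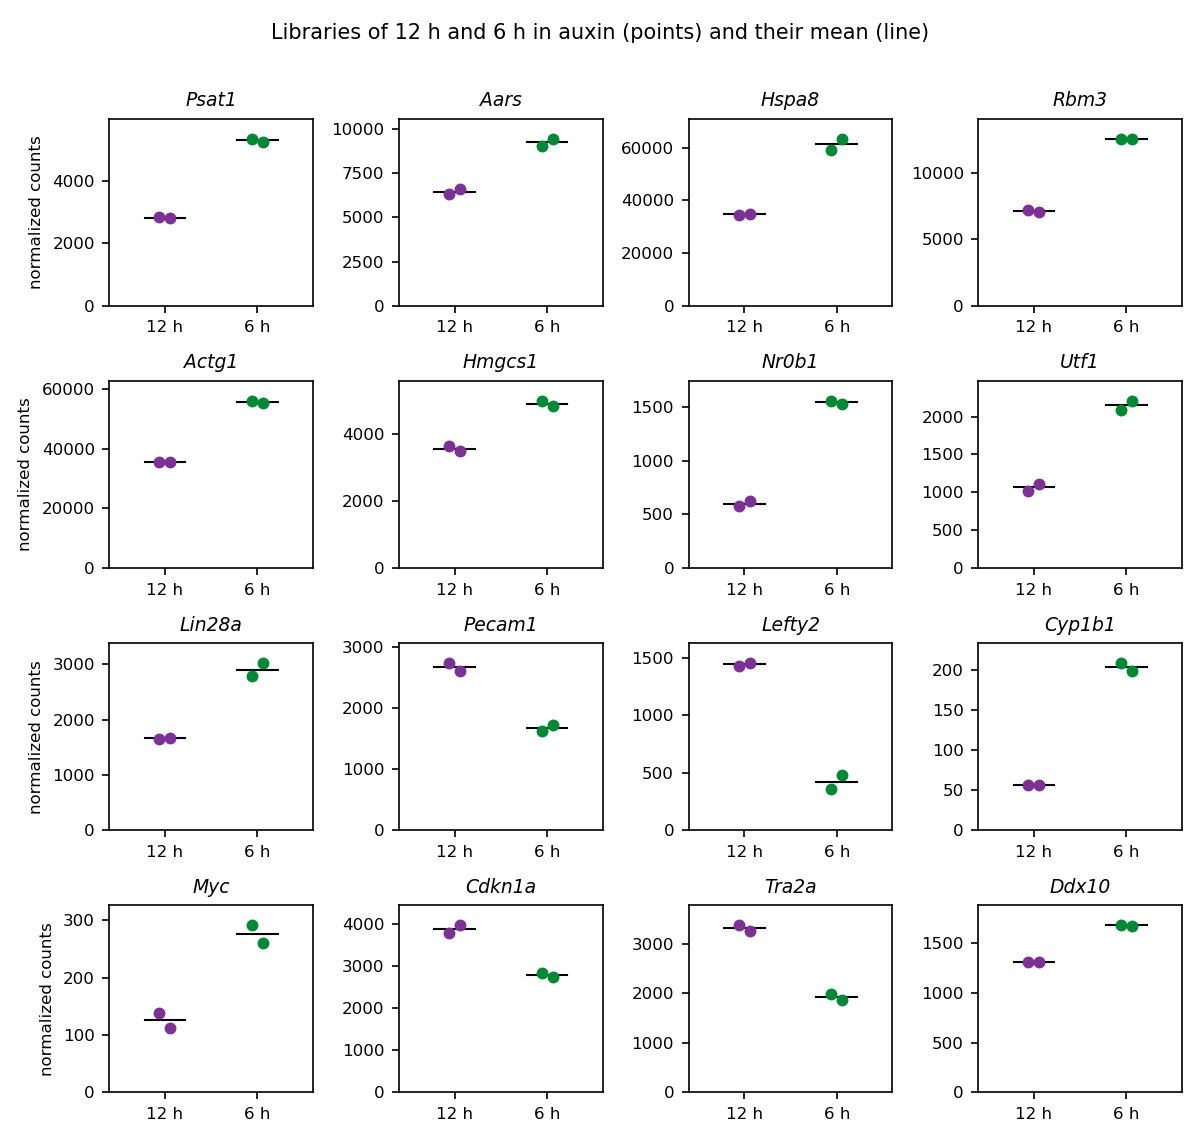
Normalized counts (y axis, from 0) of 16 genes in each library, with 12 h on the left and 6 h on the right and a line at the mean of the 2 libraries. In Nr0b1, Psat1, Hspa8 and Cyp1b1 both 12 h libraries lie below both 6 h libraries, and in Lefty2, Pecam1 and Tra2a both lie above.

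Genes outside these lists that rose had varied functions. Cpz, a secreted carboxypeptidase, was at 133 and 171 in the 12 h libraries, against 31 and 33.7 in the 6 h libraries (log2 change 2.19 ± 0.31 SE, limma adjusted p = 0.0018). Serpine2, a secreted inhibitor of thrombin and related proteases, was at 369.7 and 342 in the 12 h libraries, against 118 and 123 in the 6 h libraries (log2 change 1.55 ± 0.22 SE, limma adjusted p = 0.00183). Cd97, an adhesion receptor coupled to G proteins, was at 1525 and 1600.1 in the 12 h libraries, against 772 and 704 in the 6 h libraries (log2 change 1.08 ± 0.095 SE, limma adjusted p = 3.48e-05). None of the 3 had overlapping values, which was a condition for naming Cpz and Serpine2 among the largest changes. Sdc4, a heparan sulfate proteoglycan of focal adhesions, was at 1913 and 1914 at 12 h, against 1197 and 1128 at 6 h (0.72). Tra2a, a splicing factor, was at 3369 and 3249.7 in the 12 h libraries, against 1975 and 1867 in the 6 h libraries (log2 change 0.78 ± 0.065 SE, limma adjusted p = 3.08e-05). Plekhh1 and Spice1, a centriole protein, were 1.98-fold higher and 2.08-fold higher at 12 h than at 6 h. Ttll6, which adds glutamate chains to tubulin, was at 478 and 511 at 12 h, against 216 and 220.5 at 6 h (1.18). The lysosomal alpha-mannosidase Man2b1 had a log2 change of 0.69, and Agpat1, an acyltransferase of phospholipid synthesis, of 0.58. The calls of Cpz, Serpine2, Cd97, Sdc4, Tra2a, Plekhh1, Spice1, Ttll6, Man2b1 and Agpat1 held when any 1 of the 4 libraries was left out.

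Falls outside the lists included genes of modest level. Enox1, a surface oxidase of NADH, was at 83.6 and 77.9 in the 12 h libraries, against 272 and 319 in the 6 h libraries, 3.66-fold lower (log2 change -1.86 ± 0.15 SE, limma adjusted p = 3.08e-05). Its log2 change from 2 h to 4 h had been -1.09 (limma adjusted p = 0.0016), and from 1 day to 2 days it was 1.04 (limma adjusted p = 0.0016), comparisons that share no library with 12 h and 6 h. Itga9, an integrin subunit, was at 139 and 181 in the 12 h libraries, against 499 and 415 in the 6 h libraries (-1.51), and Nefh, the heavy neurofilament subunit, at 198 and 170.3 in the 12 h libraries, against 463 and 504 in the 6 h libraries (-1.39). Rnf128, a ubiquitin ligase, had a log2 change of -1.31. The abundant Zfp207, a zinc finger protein of the mitotic spindle, was at 4204 and 4073 at 12 h, against 6337 and 6314 at 6 h (-0.61). The calls of Enox1, Itga9, Nefh, Rnf128 and Zfp207 held when any 1 of the 4 libraries was left out.

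The interval from 6 h to 12 h can be set beside that from 2 h to 4 h, since they share no library. Between 2 h and 4 h, 236 genes were called higher (1.77%) and 91 lower (0.681%), so that calls of higher genes were in the majority, where from 6 h to 12 h calls of lower genes were. The changes of the 2 intervals differed for 574 genes by limma's test of the difference, 211 with a greater value in the later interval (1.58% of genes) and 363 with a lower one (2.72%). Ddit4, an inhibitor of mTORC1, was at 309 and 288 (2 h), 956 and 954 (4 h), 1148 and 1173 (6 h) and 1033 and 1119 (12 h), so its rise lay in the earlier interval (difference -1.78 ± 0.15 SE, limma adjusted p = 0.000186). Slc1a4, a transporter of neutral amino acids, was at 512 and 518 (2 h), 176 and 181 (4 h), 208 and 232 (6 h) and 290.4 and 269 (12 h) (difference 1.87, limma adjusted p = 0.000769). From 4 h to 6 h, a comparison that shares the 6 h libraries, 2 genes were called higher and 3 lower (0.0374% in all), with 1025 at an unadjusted p below 0.05, against 2819 from 6 h to 12 h. Across 13286 genes the log2 change from 2 h to 4 h had a Spearman correlation of 0.274 with GC content and that from 6 h to 12 h one of -0.0576; genes share libraries and are not independent. With the trend on GC content and length removed, 252 genes had a greater and 423 a lower value in the later interval. The intervals differ in length (2 h, 2 h and 6 h), so their counts are given side by side only. With 1 library left out, the genes of lower value in the later interval numbered 87 to 170 and those of greater value 39 to 69.

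**Figure D5:**
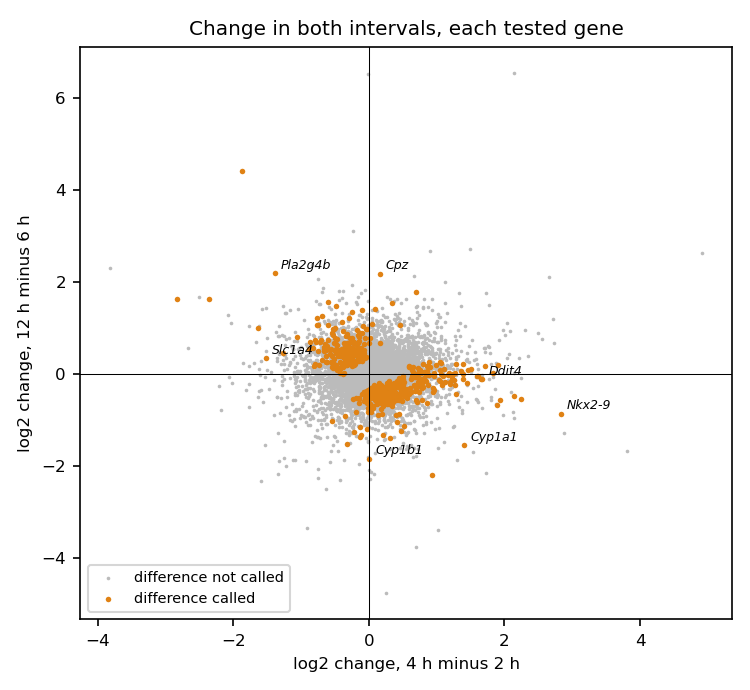
For each tested gene, the log2 change from 6 h to 12 h (y axis) is plotted against that from 2 h to 4 h (x axis), 2 changes that share no library. Orange points are the 574 genes whose changes differ by limma's test, with 7 of them named, and most lie where the 2 changes have opposite signs or where 1 of them is near 0.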

How the data were processed

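All 16 libraries hold mRNA sequencing of 1 cell line. The deposited values are a signal, counts per gene normalized by the authors, for 14552 genes. Per the submitters' processing notes, the authors used Trim Galore, STAR, RSEM, DESeq2 and mm10, with no roles or versions stated. Groups came from the labels. A mean of 10 or more over all libraries was required, and the 13355 genes that met it entered limma (version 3.58.1, R 4.3.3) as log2(value + 1), so fold changes of low genes are understated. The fit had a mean per group, an intensity trend and 8 residual degrees of freedom. Contrasts were 12 h minus 6 h, and that minus the change from 2 h to 4 h. P-values were adjusted by Benjamini-Hochberg over all genes, and adjusted p below 0.05 was called higher or lower. Raw depth is not given in the values, so no counting interval was computed; normalized totals are in the text.

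Lists, comparisons, motifs and genes were chosen with earlier results of these data known. Named genes were the largest changes and smallest p-values with a mean of at least 50, members of lists with the smallest p, and genes fixed by name. The largest changes were taken only from called genes whose values at 12 h and 6 h did not overlap. Positions follow GENCODE M21 (GRCm38). On simulated data for 12 h against 6 h over 13355 genes, log2 changes of 0.5, 1 and 2 were called in 26.9%, 70.1% and 90.9% of changed genes. The simulated noise was independent and equal across groups, and fewer genes changed than were called here. These rates therefore need not hold for the real libraries. Some genes that the rule allows are not reported here.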

Additional observations from a re-analysis of the deposited data

Results flagged for a closer look

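The genes below differed most between the change from 6 h to 12 h and the change from 2 h to 4 h by limma's test of the difference, among called genes with a mean of at least 50. The test's values are log2 differences, later interval minus earlier. Nkx2-9, a homeobox gene, had a difference of -3.68. Cyp1a1 had -2.94 and Cyp1b1 had -1.84, both targets of AHR. Ddit4 had -1.78. The sodium channel subunit Scn3b had -2.49, the adhesion gene Mdga1 had -1.80, and the zinc finger gene Sp6 had -1.76. Fam212b had -2.77, Gramd2 had -1.72 and Slc35e4 had -1.70.

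Of greater value in the later interval, Pla2g4b, a phospholipase, had a difference of 3.6, with 52.6 and 135 (2 h), 27.8 and 35.9 (4 h), 16.9 and 18.9 (6 h) and 77 and 96 (12 h). Its lowest values were at 6 h, and its 2 h libraries lay far apart. The carboxypeptidase Cpz had 2.03, the meiotic cohesin subunit Rec8 had 1.95, and Slc1a4 had 1.87. Megf6 had 1.87, Nphs1, which encodes nephrin, had 1.84, and the peptide transporter Slc15a1 had 1.82. Arhgef38 had 1.73, Mxra7 had 1.68 and Pacsin1, an endocytosis gene, had 1.6. No cause of these differences was tested.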

How the results depend on the processing

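The direction of all 866 calls stayed the same under each alternative (of 846 with the filter at a mean of 50). It could not change in fits of fewer groups, without the intensity trend or with replicate as a block. Those settings leave each log2 change as it was and alter only its error. Under pseudocounts of 0.5 and 5, other filters, other scalings and removal of the trend on length and GC content both counts stayed within 1.5 times. Trimmed means of M values gave 322 higher and 517 lower. Counts of higher and lower genes were 901 and 1451 in a fit of 2 to 12 h alone, 967 and 1359 in a fit of 6 and 12 h alone, 1055 and 1555 with library weights, and 904 and 1437 without the untreated and 1 day libraries, a setting chosen after seeing the data. Without the intensity trend 203 were higher and 275 lower, and 29 of the named genes lost their call. With 1 library left out, 43 to 51 were higher and 93 to 150 lower, and of 127 named genes called, 53 were called in all 4 such fits and 44 in none. Same-numbered libraries did not deviate together (correlations between groups from -0.0614 to 0.0664) and share only a number; with replicate as a block, 265 were higher and 522 lower, and the calls of Cdk6, Hk1, Klf2, Nqo1, Ptp4a3, Nkx2-2 and Srsf7 ended.

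For the difference from the change of 2 h to 4 h, the counts above and below 0 were 815 and 1253 in the fit of 2 to 12 h alone, 886 and 1305 with weights, 139 and 179 without the intensity trend, 173 and 292 with replicate as a block, and 820 and 1266 without the untreated and 1 day libraries. With 1 library left out they were 39 to 69 and 87 to 170. The cause of these shifts was not tested, other than the smaller groups in fits that leave a library out. All but the fit of 2 to 12 h alone and the block were chosen after seeing the data for this difference.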

Other observations

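Genes of RNA splicing that were called differed in direction by family. Some members not called went the other way, such as Srsf2 (-0.26) among the SR factors and Hnrnph3 (0.46) among the hnRNP genes. These families, and the tubulins and HMG proteins below, were chosen after their values had been seen, so their counts are descriptions. The 13 SR and TRA2 splicing factors, which bind exonic enhancers, had a median log2 change of 0.113, and 11 had a mean above 1000. Of them 3 were higher (23.1%, against 2.18% of all genes) and none lower. Srsf3 was at 12023 and 10471 in the 12 h libraries, against 8391 and 7955 in the 6 h libraries (log2 change 0.46 ± 0.076 SE, limma adjusted p = 0.00419), and the others were Tra2a and Srsf7 (0.22). The Srsf7 call ended with the trend on length and GC content removed (limma adjusted p = 0.188), with upper quartiles (0.0505) and without the filter on low values (0.0502). Of 29 hnRNP genes, many of which repress exons, 9 were lower (31.0%) and none higher, with a median of -0.199. Of the 29, 18 had a mean above 5000, a level at which 27.5% of all tested genes were lower. Hnrnpl and Ptbp1 had log2 changes of -0.70 and -0.52. Of 23 genes of the SF3, SNRP and U2AF core of the spliceosome, 13 were lower (56.5%) and none higher, with a median of -0.355. Of the 23, 21 had a mean above 1000 and 5 above 5000. Sf3b3, a subunit of the particle that recognises the branch point, was at 8479.5 and 8678 in the 12 h libraries, against 12566 and 12327 in the 6 h libraries (-0.54).

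Tubulins and HMG chromatin proteins also had members called lower and none called higher. Of 14 tubulins, 10 of them above a mean of 1000, 6 were lower (42.9%, against 4.31% of all genes). Their median was -0.392, and Tuba1b (-0.43) and Tubb4b (-0.51) were among those called. Of 10 HMGA, HMGB and HMGN genes, 6 of them above a mean of 1000, 7 were lower (70.0%), with a median of -0.448, including Hmgb2 (-0.48). The calls of Hnrnpl, Ptbp1, Sf3b3, Tuba1b, Tubb4b and Hmgb2 held when any 1 of the 4 libraries was left out, and that of Srsf7 ended whichever of the 4 libraries was left out (limma adjusted p of 0.142 to 0.274). The limma adjusted p was 0.05 or more for Srsf3 without 12 h replicate 1 (0.0628) and 6 h replicate 2 (0.0619). These families hold many abundant genes with close copies, and the part of level and of shared reads in their counts was not tested.

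The interval from 1 day to 2 days, which shares no library with 6 h and 12 h, can be set beside these calls. Of the 575 genes lower at 12 h than at 6 h, 70.6% were also below 0 from 1 day to 2 days, against 51.5% of all genes. There 74 of the 575 were called lower and 21 higher, against 544 and 210 of all 13355 genes. Nr0b1 and Utf1 were called higher there (0.46 and 0.58) and Rbm3 lower (-0.54). The 575 hold many abundant genes, and the part of level in these shares was not tested. Of the 291 genes higher at 12 h, 60.1% were above 0 there, against 48.4% of all genes. From 2 h to 4 h, 55.8% of the 575 were below 0, against 51.9% of all genes, and 44.0% of the 291 were above 0, against 48.1%.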
